A study of Mus musculus with 33 samples.

Results

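The H3K9 demethylase genes Kdm1a, Kdm3a, Kdm3b, Jmjd1c, Kdm4a, Kdm4b and Kdm4c were examined in mouse embryonic stem cells (ESCs) that lacked HP1 proteins or the H3K9 methyltransferase SETDB1. They were chosen by gene symbol, and all 7 were found once each among the 55487 genes listed. RNA-seq was available for 33 libraries in 11 conditions with 3 libraries each, all of strain C57BL/6.

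Heterochromatin protein 1 (HP1) reads methylated lysine 9 of histone H3, and its paralogs HP1α, HP1β and HP1γ are encoded by Cbx5, Cbx1 and Cbx3. The mutants Hp1αΔ/Δ, Hp1βΔ/Δ, Hp1γΔ/Δ, Hp1α/βΔ/Δ, Hp1α/γΔ/Δ and Hp1β/γΔ/Δ were constitutive CRISPR/Cas9 knockout lines taken from isolated clones. Hp1α/β/γΔ/Δ cells were made by Cre transfection of Hp1α/βΔ/Δ;Hp1γF/F ESCs, in which HP1γ alone was conditional. Setdb1Δ/Δ cells were made by Cre from Setdb1F/F ESCs, which served as their control. There were 2 sets of wild-type libraries, here called set A and set B, which carry the same genotype label. In the deposited tables set A stood beside the single mutants, Hp1α/βΔ/Δ and Hp1α/β/γΔ/Δ, and set B beside Hp1α/γΔ/Δ and Hp1β/γΔ/Δ. In its account of the triple mutant's RNA, the study names control-vector cells of the Hp1α/βΔ/Δ;Hp1γF/F line as the control for the triple mutant, whereas the labels give wild type, so the triple mutant was also compared with Hp1α/βΔ/Δ ESCs. The Hp1α/βΔ/Δ ESCs were constitutive knockouts and not the floxed line. With either control, loss of HP1γ cannot be told apart from the Cre transfection. All cells were grown on mouse fibroblast feeders that were removed by plating on gelatin.

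Demethylases of H3K9 belong to a pair of enzyme classes. KDM1A (LSD1) is a flavin-dependent amine oxidase that removes mono- and dimethyl groups and works with the CoREST scaffold proteins. The others carry a JmjC domain and need iron and 2-oxoglutarate, with KDM3A, KDM3B and JMJD1C acting on mono- and dimethylated H3K9 and KDM4A, KDM4B and KDM4C on the di- and trimethylated forms. In ESCs, Kdm3a and Kdm4c are known as genes that help to keep the pluripotent state, through sites near Tcl1 and Nanog among others, and Kdm3a and Kdm4b are known to be induced by hypoxia.

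The promoters of Kdm3a and Kdm4a are shown because these genes had the largest rise and the largest fall of the 7 in Hp1α/β/γΔ/Δ cells. Each is printed 5′ to 3′ on the gene's own strand from the RefSeq promoter table (GRCm38.p6), limited to bases upstream of the gene's start in GENCODE M21. The Kdm3a stretch is chr6:71632991-71633167 on the minus strand and the Kdm4a stretch is chr4:118180044-118180293 on the minus strand. Capitals mark the CCAAT box and the GC box GGGCGG on either strand, which do not overlap here.
Kdm3a: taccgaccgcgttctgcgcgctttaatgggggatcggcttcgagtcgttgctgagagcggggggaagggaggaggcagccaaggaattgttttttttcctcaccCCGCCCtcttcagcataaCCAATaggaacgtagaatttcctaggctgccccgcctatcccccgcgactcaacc
Kdm4a: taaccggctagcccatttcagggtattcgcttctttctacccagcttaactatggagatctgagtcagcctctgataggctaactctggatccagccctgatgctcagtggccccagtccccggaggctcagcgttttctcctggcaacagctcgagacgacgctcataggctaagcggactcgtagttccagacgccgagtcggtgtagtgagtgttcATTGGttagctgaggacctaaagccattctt
Both stretches held 1 CCAAT box, which 24.4% of all 32851 RefSeq promoters hold in a stretch of 177 bases and 33.8% in one of 250 bases. A GC box was found in the Kdm3a stretch and not in that of Kdm4a, and GGGCGG is present in 20.6% and 32.7% of promoters at those lengths. CpG dinucleotides numbered 14 in the Kdm3a stretch and 12 in the Kdm4a stretch, against medians of 3 and 6 over all promoters. ACGTG and GCGTG, the core letters of the hypoxia response element, were in neither stretch, while 27.8% and 38.6% of promoters hold at least 1 of them. RefSeq lists 3 promoters for Kdm3a and 1 for Kdm4a, and the motif counts cover the printed stretches only.

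Library totals lay between 17330936 and 25743149 estimated counts, with a median of 21522569. The targeted transcripts were lower in the lines labelled for them, although none was absent. Cbx1 stood at 43.9 to 49.3 CPM (counts scaled to the size of the library) and Cbx3 at 61.7 to 66.2 CPM in Hp1α/β/γΔ/Δ cells, where set A held 430.2 to 445 and 173 to 186 CPM. Cbx5 stood at 278 to 287 CPM in the triple mutant against 478 to 489 CPM in set A, and it was lower still in Hp1α/βΔ/Δ ESCs (199.9 to 208 CPM). Setdb1 held 68.5 to 72.0 CPM in Setdb1Δ/Δ cells, where Setdb1F/F ESCs held 129.98 to 135 CPM. Replicate 2 of Hp1α/γΔ/Δ stood apart from its sister libraries. The chi-square per degree of freedom between it and them was 114 and 122, against 1.89 to 11.3 in the 31 other replicate pairs. It is kept in the results below, and the calls of that line are also given without it.

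Markers of ES cells and of other cells moved between conditions. The summed level of 10 ES cell markers was 4306 to 4364 CPM across the set A libraries, 1760 to 1829 CPM in Hp1α/β/γΔ/Δ cells, 6711 to 6742 CPM in Setdb1F/F and 4753 to 4812 CPM in Setdb1Δ/Δ cells. The 10 fibroblast markers for the feeders summed to 34.9 to 37.8 CPM in set A, 54.3 to 64.1 CPM in set B, 25.8 to 30.2 CPM in the triple mutant and 12.8 to 13.6 CPM in Hp1α/γΔ/Δ ESCs. In the Setdb1 pair they summed to 16.7 to 17.9 CPM in the control and 14.1 to 14.5 CPM in the mutant, and Lum was at 0 in every library of set A, set B and Setdb1F/F. The 8 endoderm markers summed to 214 to 230.2 CPM for set A, 80.8 to 87.8 CPM in the triple mutant, 252 to 258 CPM in Setdb1F/F and 42.9 to 48.9 CPM in Setdb1Δ/Δ cells. The lower sum of the triple mutant came mostly from Lama1, a basement membrane gene that went from 158 to 41.5 CPM. Of the 8 markers 6 were tested there, with 3 higher and 3 lower. The 3 higher were the transcription factors Gata4, Gata6 and Sox17, which rose from low levels. Gata4 went from 0.80 to 9.42 CPM, Gata6 from 0.23 to 2.78 CPM and Sox17 from 0.23 to 1.93 CPM. Their log2 changes were 3.53, 3.50 and 2.99, all past the test. Foxa2 and Sox7, also on the list, were not among the 3 called higher. As 6 of 8 markers entered the test, lack of a call need not mean lack of change. The study names Foxa2 among the endoderm markers that went up in this mutant. The part of these markers in the changes of the demethylase genes was not tested. In such bulk samples, fewer cells of one type and less RNA per cell cannot be told apart.

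All 7 genes were expressed in wild-type ESCs. Levels of different genes are compared in TPM, which scale for transcript length as well as for library size. In set A, Kdm1a had the highest level at 105 ± 3.21 TPM (mean ± SD, n = 3 here and below) and Kdm4b the lowest at 18.7 ± 0.895 TPM. Between them lay Kdm3a at 61.8 ± 1.99 TPM, Kdm4c at 59.7 ± 0.602 TPM, Jmjd1c at 50.4 ± 0.537 TPM, Kdm4a at 42.9 ± 0.485 TPM and Kdm3b at 40.4 ± 1.31 TPM. The libraries of Kdm3a and Kdm4c overlapped, and those of every other pair of neighbours in this order did not. In Hp1α/β/γΔ/Δ cells Kdm1a stayed at the top at 110 ± 3.36 TPM, Kdm3a stood next at 102 ± 0.435 TPM, and Kdm4a had moved down to 18.8 ± 1.60 TPM beside Kdm4b at 14.5 ± 1.19 TPM.

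**Figure D1:**
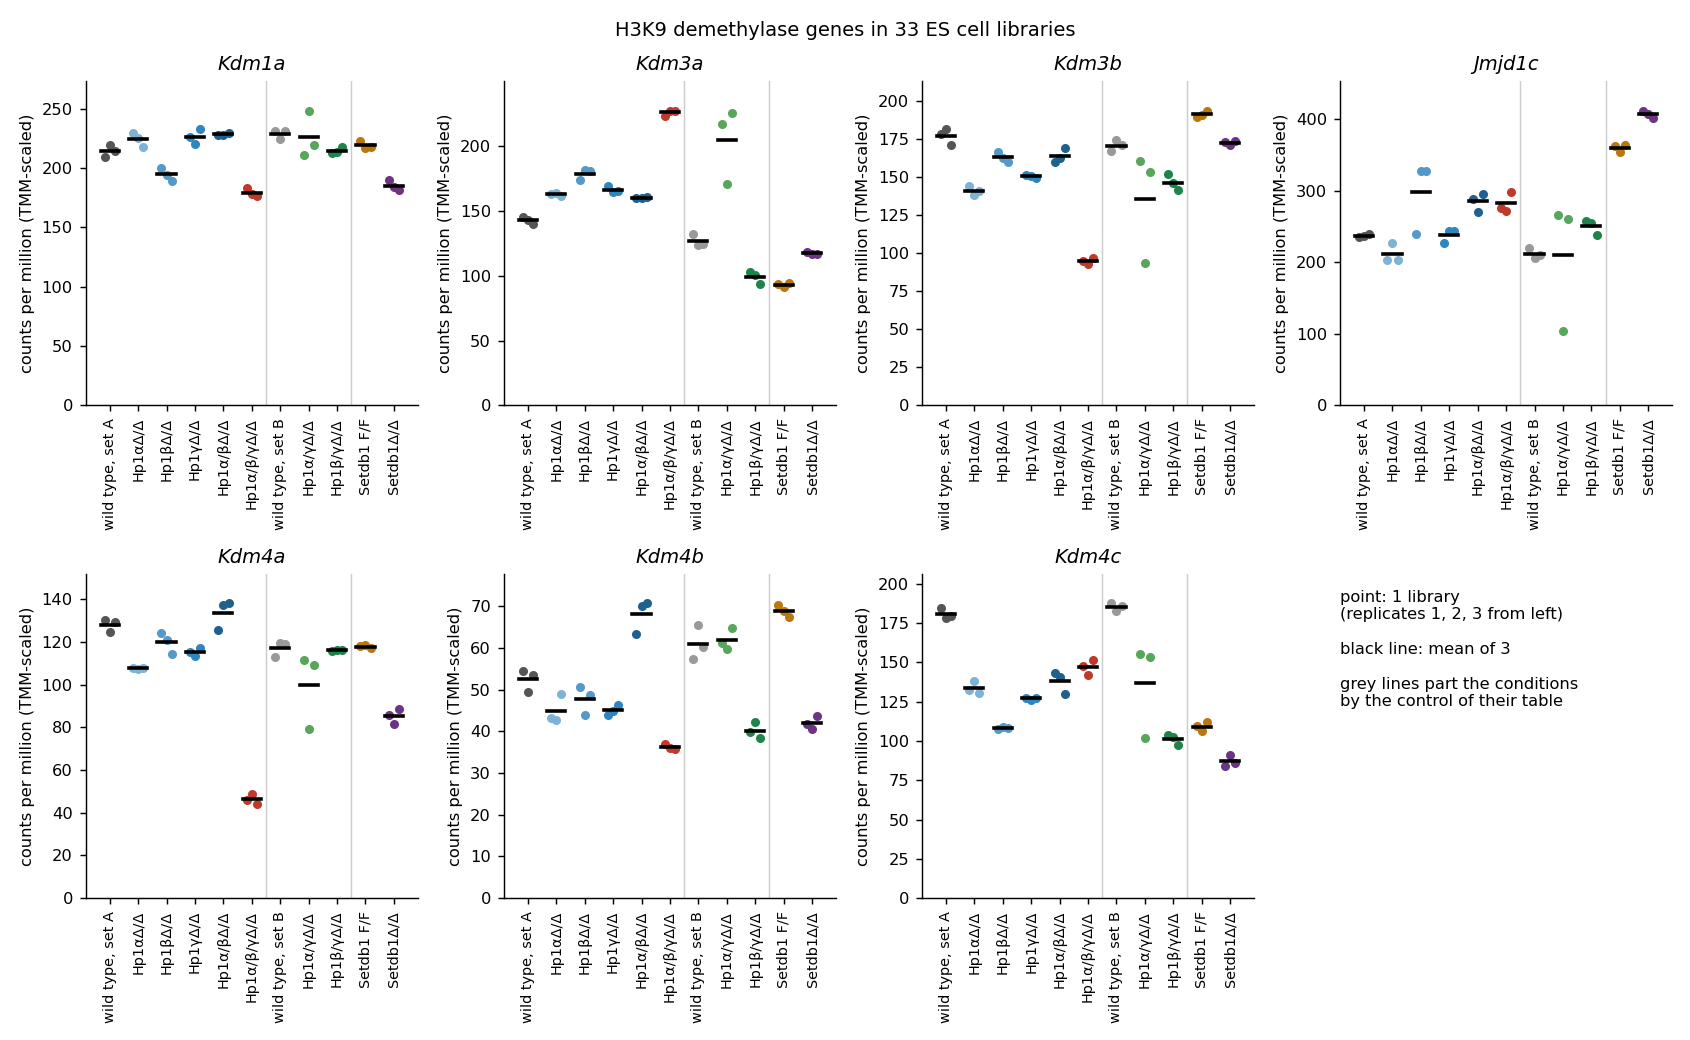
Level of each demethylase gene in CPM (TMM-scaled, linear axes from 0) in the 33 libraries, with 1 point per library, 3 points per condition and the mean as a black line. Kdm4a in Hp1α/β/γΔ/Δ cells (44.0 to 48.6 CPM) lies under every other library, and replicate 2 of Hp1α/γΔ/Δ (the middle point) lies away from its sister libraries in most panels.

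The first question was which demethylase genes changed after loss of all HP1 proteins and after loss of SETDB1. On the count scale all 7 passed edgeR's quasi-likelihood test (Benjamini-Hochberg adjusted p under 0.05) in Hp1α/β/γΔ/Δ cells against set A, where 81.6% of the 17501 genes tested did so. Kdm3a and Jmjd1c were higher and Kdm1a, Kdm3b, Kdm4a, Kdm4b and Kdm4c lower, although on the authors' TPM scale Kdm1a and Kdm4c were level or slightly higher. Kdm4a alone passed the 2-fold threshold, which 42.3% of genes passed in either direction. In Setdb1Δ/Δ cells against Setdb1F/F ESCs the same 7 genes passed in the same directions, against a background of 78.9% of 16457 genes, and none changed by more than 2-fold, which 29.9% of genes did. In that pair Kdm1a, Kdm3b, Kdm4a and Kdm4c were level or higher on the TPM scale.

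The TPM values as a whole were shifted upward in these mutants. Over the 11579 genes with a mean of at least 5 CPM, the median log2 ratio of the triple mutant to set A was 0.26 in TPM and -0.11 in CPM. Over 11368 such genes in the Setdb1 pair it was 0.42 in TPM and -0.06 in CPM. Relative to that median, every change called on the counts kept its direction in TPM in all 10 comparisons. Both scales come from the same RSEM estimates, so this is not an independent check of the directions. The members' median absolute change was 0.56 on the log2 scale in the triple mutant and 0.32 in Setdb1Δ/Δ cells, against 0.83 and 0.57 over all genes tested.

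Kdm4a, the first of the trimethyl demethylases, had its lowest level in the triple mutant. It stood at 46.2, 48.6 and 44.0 CPM there, and at 130.1, 124 and 129.5 CPM in set A. Hp1α/βΔ/Δ ESCs, which share the loss of HP1α and HP1β with the triple mutant, had 126, 137 and 138 CPM. The groups did not overlap, and Kdm4a fell by 1.50 ± 0.045 on the log2 scale (SE, adjusted p = 1.88e-16) against set A and by 1.57 ± 0.052 against Hp1α/βΔ/Δ ESCs (adjusted p = 9.83e-14). The size of the change against set A exceeded that of 73.5% of all genes tested. The genes of its chromosome 4 had a median change of -0.12 and all other genes one of 0.04.

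After SETDB1 loss Kdm4a moved less. Its values were 85.8, 81.4 and 88.7 CPM in Setdb1Δ/Δ and 118, 118 and 117 CPM in Setdb1F/F libraries. This was a fall by 0.48 ± 0.035 (adjusted p = 9.78e-10) that was not seen in TPM, where the means were 36.6 and 36.3. In the single and double mutants Kdm4a stayed close to wild type. It passed the test in Hp1αΔ/Δ (107.5 to 107.7 CPM, log2 change -0.24, adjusted p = 1.59e-05) and Hp1γΔ/Δ (113 to 117 CPM, log2 change -0.15, adjusted p = 0.00236), and both calls were lost with set B as the control (adjusted p = 0.0656 and 0.899). The 4 other lines had log2 changes between -0.26 and 0.05 that did not pass. Against the other wild-type set 2 of these did, Hp1α/βΔ/Δ with 0.18 (adjusted p = 0.0126) and Hp1β/γΔ/Δ with -0.14 (adjusted p = 0.00326).

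Kdm4b, the least abundant member, also had its lowest level in the triple mutant. The libraries held 37.1, 36.1 and 35.7 CPM in Hp1α/β/γΔ/Δ cells, 54.4, 49.5 and 53.6 CPM in set A and 63.4, 70.1 and 70.7 CPM in Hp1α/βΔ/Δ ESCs. It fell by 0.56 ± 0.055 against set A (adjusted p = 1.77e-08) and by 0.94 ± 0.055 against Hp1α/βΔ/Δ ESCs (adjusted p = 1.55e-10). After SETDB1 loss it stood at 41.9, 40.7 and 43.6 CPM, under the 70.4, 68.9 and 67.4 CPM of Setdb1F/F. That fall by 0.72 ± 0.042 (adjusted p = 3.76e-11) was the largest of the 7 genes in this pair, and it was present in TPM as well (17.2 against 22.0). Kdm4b also fell in Hp1β/γΔ/Δ ESCs, to 39.8, 42.2 and 38.3 CPM from 57.3, 65.6 and 60.2 CPM in set B (log2 change -0.61 ± 0.060, adjusted p = 6.53e-07). It was higher in Hp1α/βΔ/Δ ESCs against set A (log2 change 0.37 ± 0.055, adjusted p = 3.19e-05), and with set B as the control this call was lost (0.15, adjusted p = 0.0679). The single mutants Hp1αΔ/Δ and Hp1γΔ/Δ had changes of -0.22 each (adjusted p = 0.00467 and 0.00188), no larger than the 0.22 by which set B exceeded set A, and against set B both were -0.42.

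On the count scale Kdm4c was lower than wild type and past the test in 6 of 7 HP1 mutants, with the lowest means in Hp1βΔ/Δ and Hp1β/γΔ/Δ ESCs, although in TPM the triple mutant stood level with wild type. Wild-type libraries held 184, 179 and 179.8 CPM in set A and 188, 183 and 186 CPM in set B. Hp1βΔ/Δ ESCs held 108, 109 and 108 CPM and Hp1β/γΔ/Δ ESCs 104, 103 and 97.3 CPM. These were falls by 0.76 ± 0.041 (adjusted p = 1.59e-07) and 0.87 ± 0.047 (adjusted p = 5.63e-10), and their sizes exceeded those of 83.1% and 85.2% of the genes tested. Hp1αΔ/Δ stood at 132, 138 and 131 CPM (log2 change -0.43 ± 0.034), Hp1γΔ/Δ at 128, 126 and 128 CPM (-0.51 ± 0.033) and Hp1α/βΔ/Δ at 143, 141 and 130.1 CPM (-0.40 ± 0.042), all past the test. None of these libraries overlapped with those of their control.

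The triple mutant did not have the lowest Kdm4c level. Its libraries held 148, 142 and 151 CPM, a fall by 0.33 ± 0.032 against set A (adjusted p = 2.18e-08) that was absent in TPM (62.0 against 59.7). Against Hp1α/βΔ/Δ ESCs the change was 0.06 with an approximate 95% interval of -0.03 to 0.15 and did not pass. Setdb1F/F ESCs began at a low level of 109, 106 and 112 CPM, and Setdb1Δ/Δ cells held 84.2, 90.9 and 86.3 CPM (log2 change -0.33 ± 0.035, adjusted p = 1.24e-07). In TPM the Setdb1 pair stood at 39.1 and 35.2, the mutant being the higher. In Hp1α/γΔ/Δ ESCs Kdm4c stood at 156, 102 and 153 CPM and did not pass (log2 change -0.47 ± 0.189, adjusted p = 0.0759), and without replicate 2 the change was -0.27 and passed.

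**Figure D2:**
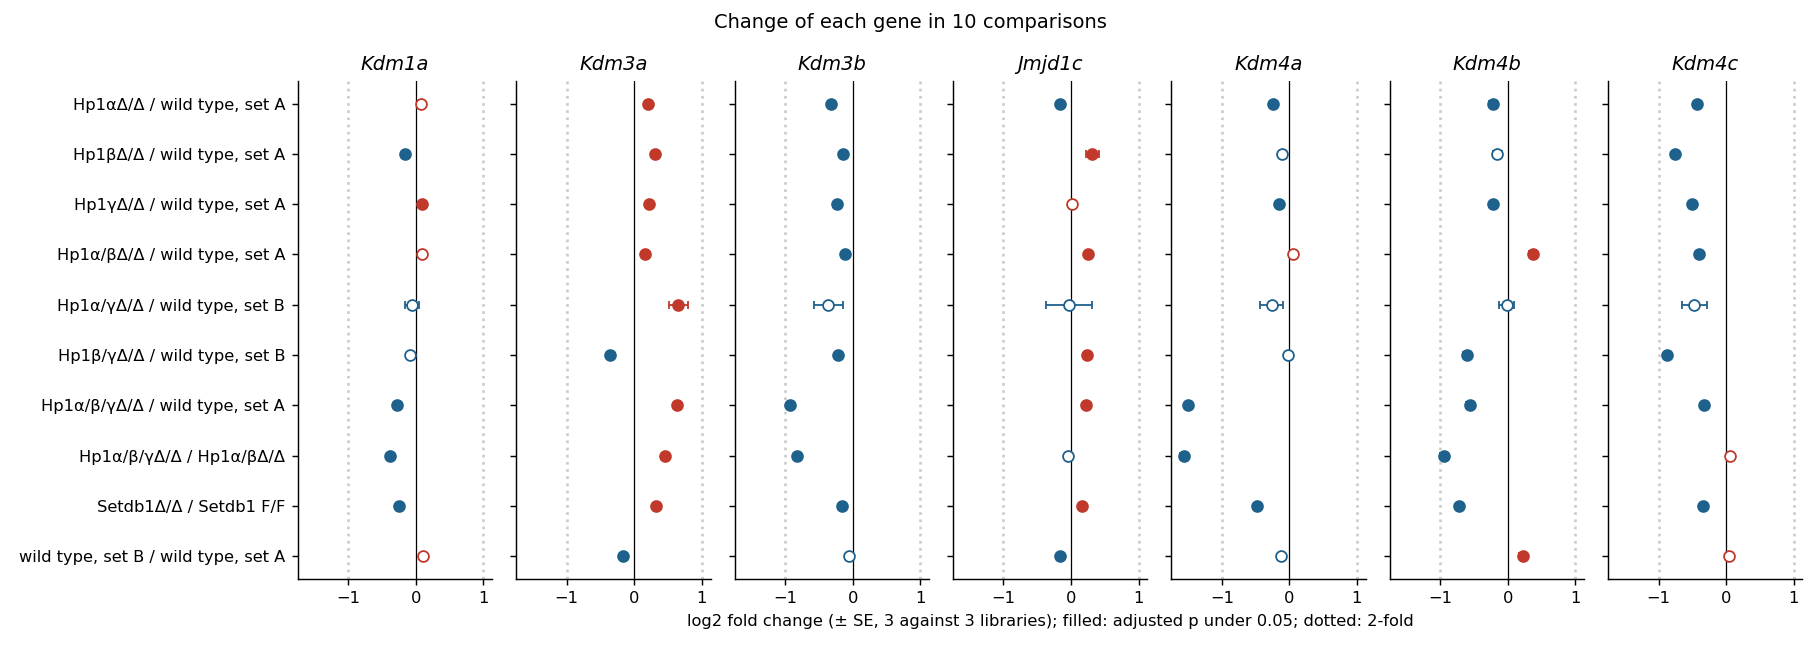
Log2 fold change on the count scale of each demethylase gene (columns) in 10 comparisons (rows), with the standard error over 3 against 3 libraries (filled: adjusted p under 0.05, red: higher, blue: lower, dotted lines: 2-fold). Kdm4c lies left of 0 in all 7 HP1 mutants against wild type and Kdm3a right of 0 in all but Hp1β/γΔ/Δ, while in TPM as deposited 2 called directions turn in the triple mutant and 4 in Setdb1Δ/Δ.

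Kdm3a, the first of the dimethyl demethylases, had its highest level in the triple mutant. Its libraries held 223, 227 and 227 CPM in Hp1α/β/γΔ/Δ cells, 145, 143 and 139.8 CPM in set A and 159.9, 159.9 and 160.6 CPM in Hp1α/βΔ/Δ ESCs. The rise of 0.63 ± 0.029 against set A (adjusted p = 1.11e-13) and of 0.46 ± 0.033 against Hp1α/βΔ/Δ ESCs (adjusted p = 2.18e-09) was present in TPM too, at 102 against 61.8 and 65.9. The genes of its chromosome 6 were themselves shifted, with a median change of 0.38 against set A and 0.35 against Hp1α/βΔ/Δ ESCs, while all other genes had medians of 0.02 in both. The part of that shift in the rise of Kdm3a was not tested. In Setdb1Δ/Δ cells Kdm3a stood at 118, 117 and 116 CPM, above the 93.8, 91.3 and 94.4 CPM of Setdb1F/F (log2 change 0.32 ± 0.030, adjusted p = 3.21e-08), and there chromosome 6 had a median of 0.07.

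The single mutants shared a smaller rise of Kdm3a. It stood at 163, 164 and 161 CPM in Hp1αΔ/Δ, at 174, 181 and 180.3 CPM in Hp1βΔ/Δ and at 169, 165 and 165 CPM in Hp1γΔ/Δ ESCs, with log2 changes of 0.20, 0.31 and 0.22 that all passed. Hp1α/γΔ/Δ ESCs were higher, at 217, 170.4 and 225 CPM against 132, 124 and 124 CPM in set B. This rise of 0.65 ± 0.146 (adjusted p = 0.00946) was the only change of a member that passed in that line, and it was 0.80 without replicate 2. Hp1β/γΔ/Δ ESCs went the other way, to 103, 101 and 93.5 CPM, a fall by 0.36 ± 0.052 (adjusted p = 4.18e-05). No library of Hp1β/γΔ/Δ overlapped with either wild-type set.

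Kdm3b, located on chromosome 18, changed most in the triple mutant. The libraries held 94.9, 93.2 and 97.1 CPM in Hp1α/β/γΔ/Δ cells, 178, 182 and 171 CPM in set A and 159.96, 163 and 169 CPM in Hp1α/βΔ/Δ ESCs. It fell by 0.93 ± 0.035 against set A (adjusted p = 7.98e-15) and by 0.82 ± 0.041 against Hp1α/βΔ/Δ ESCs (adjusted p = 1.69e-11), and in TPM it stood at 25.9 against 40.4 and 37.1. The 3 single mutants, Hp1α/βΔ/Δ and Hp1β/γΔ/Δ had smaller falls that passed, with log2 changes from -0.32 to -0.12. With SETDB1 lost it stood at 173, 171 and 174 CPM beside 189, 191 and 194 CPM in Setdb1F/F (log2 change -0.16 ± 0.025, adjusted p = 2.09e-05), while in TPM it was higher in the mutant, at 57.5 against 45.9. Replicate 2 of Hp1α/γΔ/Δ was as low as the triple mutant, at 93.4 CPM, and its sister libraries held 161 and 154 CPM.

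Jmjd1c had the highest counts of the group in the SETDB1 pair. It stood at 412, 408 and 402 CPM in Setdb1Δ/Δ and 362, 355 and 363 CPM in Setdb1F/F libraries (log2 change 0.17 ± 0.021, adjusted p = 1.33e-06), all above the HP1 lines and wild type. In the triple mutant it held 276, 272 and 299 CPM against 235, 236 and 239.7 CPM in set A, a rise of 0.22 ± 0.033 (adjusted p = 4.06e-06). Hp1α/βΔ/Δ ESCs already held 288, 271 and 296 CPM, and the step from them to the triple mutant was -0.05 with an approximate 95% interval of -0.13 to 0.04. Hp1βΔ/Δ ESCs were uneven, at 239, 328 and 328 CPM, and overlapped with set A. Replicate 2 of Hp1α/γΔ/Δ held 104 CPM beside 267 and 260.4 CPM in the others, the largest gap within a condition for any member, and the change of that line was -0.04 with it and 0.31 without it.

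Kdm1a varied least. Its condition means ran from 179 CPM in the triple mutant to 229 CPM in set B, a ratio of 1.28, whereas the ratio of highest to lowest mean was 2.89 for Kdm4a and 2.42 for Kdm3a. It held 184, 178 and 176 CPM in Hp1α/β/γΔ/Δ cells against 209, 219 and 214 CPM in set A, a fall by 0.29 ± 0.030 (adjusted p = 5.40e-08). Against Hp1α/βΔ/Δ ESCs, which held 228.2 to 229 CPM, it fell by 0.38 ± 0.034 (adjusted p = 2.46e-08), while the TPM means were 110 and 111. Setdb1Δ/Δ libraries held 189.9, 184 and 182 CPM against 223, 217 and 217 CPM, a fall by 0.25 ± 0.027 (adjusted p = 1.24e-07). In TPM neither the triple mutant (110 against 105) nor Setdb1Δ/Δ (128 against 108) was lower. Among the single and double mutants, Kdm1a passed in Hp1βΔ/Δ (log2 change -0.15, adjusted p = 0.00662) and in Hp1γΔ/Δ (0.08, adjusted p = 0.0385), and the latter call was lost with set B (adjusted p = 0.973).

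The order of the 11 conditions differed between genes. For Kdm4a the triple mutant was separate from the next condition, Setdb1Δ/Δ at 85.3 CPM, and the upper part of the order from Hp1γΔ/Δ at 115 CPM to Hp1βΔ/Δ at 119.8 CPM held 5 conditions whose neighbours overlapped. For Kdm3a the libraries of 7 of 10 neighbouring pairs of conditions did not overlap, and the order ran from Setdb1F/F at 93.2 CPM and Hp1β/γΔ/Δ at 99.1 CPM, which overlapped, to Hp1α/γΔ/Δ at 204 CPM and the triple mutant at 226 CPM, which also overlapped. For Kdm4c both wild-type sets stood at the top, at 181 and 186 CPM, overlapping with each other and separate from the triple mutant below them. For Kdm1a only 1 of 10 neighbouring pairs was separate. Overlap of libraries, here and above, was not examined over all genes, so how usual such separation is was not tested.

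Fewer genes of any kind changed in the single and double mutants. Against set A, 6 of 7 members passed in Hp1αΔ/Δ (background 45%), 5 in Hp1βΔ/Δ (51.1%), 6 in Hp1γΔ/Δ (46.7%) and 5 in Hp1α/βΔ/Δ ESCs (43.4%). Against set B, 5 passed in Hp1β/γΔ/Δ (51.7%) and 1 in Hp1α/γΔ/Δ ESCs (46.5%). Without replicate 2 of Hp1α/γΔ/Δ that count became 3, where 5272 genes were higher and 5655 lower of 16277 tested. From Hp1α/βΔ/Δ to the triple mutant 5 passed, against 80.6%, and Kdm4a passed 2-fold, as did 41.4% of genes. No member passed 2-fold in a single or double mutant, where 4.87% (Hp1αΔ/Δ), 9.1% (Hp1βΔ/Δ), 5.59% (Hp1γΔ/Δ), 8.15% (Hp1α/βΔ/Δ), 23.1% (Hp1α/γΔ/Δ) and 11.9% (Hp1β/γΔ/Δ) of all genes did. The study calls the libraries of a condition biological replicates and speaks of independent experiments for the triple mutant. Whether those of a knockout line came from separate clones is not given in the sources used here, so the p-values measure the spread between these libraries.

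The wild-type sets themselves differed at 3 of the 7 genes, where 24.8% of 16008 genes passed. Jmjd1c (log2 change -0.16, adjusted p = 0.0130) and Kdm3a (-0.17, adjusted p = 0.0165) were lower and Kdm4b (0.22, adjusted p = 0.0133) higher in set B. Each HP1 mutant was therefore set against both. Kdm3a was called in the same direction with either set in 7 of 7 mutants, higher in all but Hp1β/γΔ/Δ. Kdm4c was so called in 6 of 7, with changes larger than the difference between the sets in all 7. Kdm3b kept its direction in 7 of 7 and was called with both sets in 4. Kdm4a was called with both sets in 1 of 7, the triple mutant. Kdm1a kept its direction in 3 of 7. The share of all genes called with both sets was not examined.

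**Figure D3:**
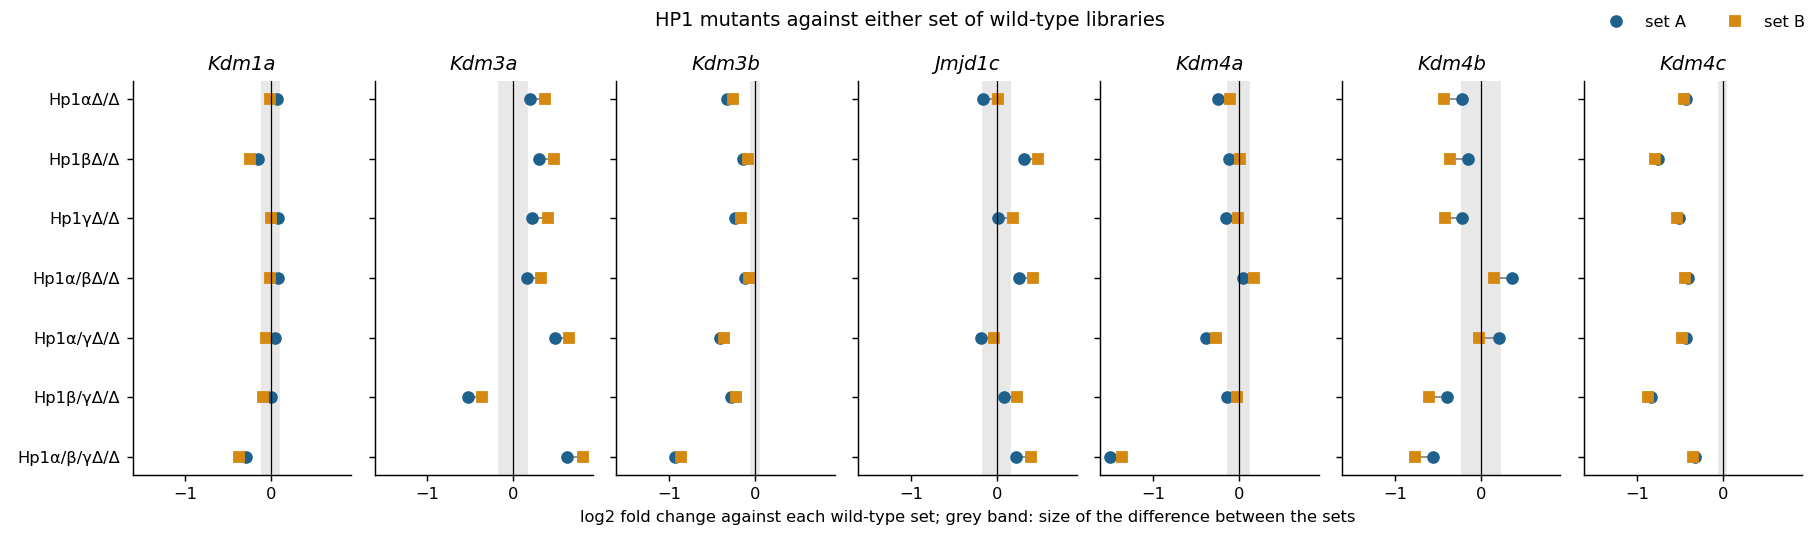
Log2 fold change on the count scale of each demethylase gene in the 7 HP1 mutants against wild-type set A (circles) and set B (squares), with a grey band as wide as the difference between the sets on either side of 0. Kdm4c lies outside the band in all 7 mutants with either set, and Kdm4a passes 2-fold with both sets (-1.50 and -1.36) in Hp1α/β/γΔ/Δ only.

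A further question was whether loss of HP1 proteins and loss of SETDB1 changed these genes to the same extent. The difference of the changes was tested on the 12 libraries of both comparisons, which share none. It passed for 3 of 7 members, where 64.9% of 18569 genes passed. Kdm4a fell further in the triple mutant, by a difference of -1.05 ± 0.057 (adjusted p = 1.52e-13) that passed 2-fold as 31.9% of genes did, and so did Kdm3b with -0.79 ± 0.042 (adjusted p = 9.11e-14). Kdm3a rose further, by 0.29 ± 0.041 (adjusted p = 1.80e-06), where the genes of chromosome 6 had a median difference of 0.27. The 2-fold call of Kdm4a was lost with set B as the control of the triple mutant (-0.92) and without replicate 3 of the triple mutant (-0.99). For the others no difference was detected with set A, with approximate 95% intervals of -0.14 to 0.02 for Kdm1a, -0.12 to 0.08 for Kdm4c, -0.05 to 0.11 for Jmjd1c and 0.01 to 0.27 for Kdm4b (adjusted p = 0.0779). With set B, the differences of Kdm1a (-0.15) and Jmjd1c (0.19) also passed the test.

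**Figure D4:**
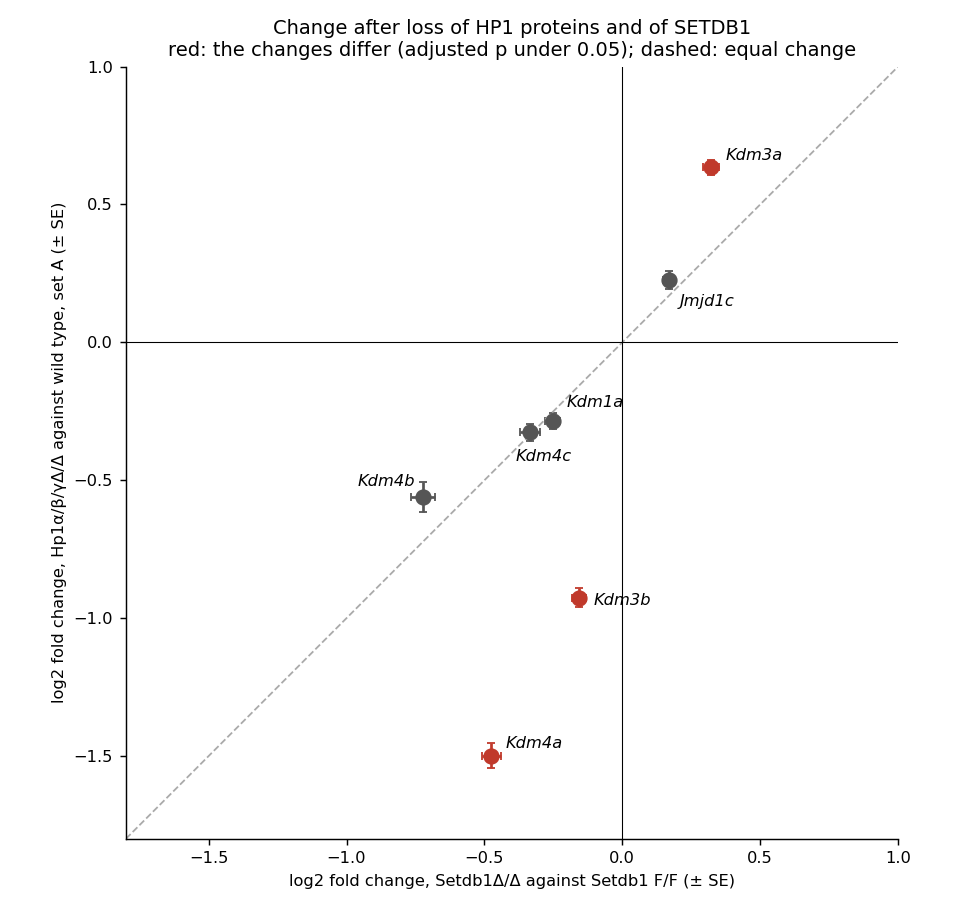
Log2 fold change on the count scale of each demethylase gene after HP1 loss (y axis, Hp1α/β/γΔ/Δ against set A) and after SETDB1 loss (x axis, Setdb1Δ/Δ against Setdb1F/F), with standard errors over 3 against 3 libraries. Red points differ between the mutants (Kdm4a by -1.05, Kdm3b by -0.79, Kdm3a by 0.29), and grey points lie near the dashed line of equal change, while in TPM as deposited Kdm1a and Kdm4c turn sign on the y axis, and Kdm1a, Kdm3b, Kdm4a and Kdm4c on the x axis.

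Histone demethylases outside the 7 members were examined as a list of 19 genes, which was not sorted by the mark they act on. In the triple mutant 12 were higher and 5 lower, where 81.6% of all genes were called. The median log2 change was 0.60 against 0.04 over all genes. Kdm4d, the testis-enriched relative of Kdm4a, went from 0.11 CPM, a level of very few counts per library, to 3.70 CPM. Kdm2b, an H3K36 demethylase and Polycomb recruiter, went from 114 to 423 CPM (log2 change 1.86), and Kdm1b, the other LSD-type enzyme, from 23.4 to 9.11 CPM (-1.39). The Setdb1 pair had 9 higher and 7 lower of 18 tested, where 78.9% of all genes were called, with a median of 0.09 against 0.01. There Kdm4d went from 0.13 to 1.61 CPM, the H3K4 demethylase Kdm5a from 127 to 283 CPM (1.15) and the H3K27 demethylase Kdm6b from 80.8 to 40.3 CPM (-1.02). The Y-linked Kdm5d rose in both, from 22.7 to 65.9 CPM and from 0.81 to 1.86 CPM. RSEM shares reads that fit several genes, so values of Kdm4 relatives at low counts are uncertain.

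Of 11 partners of KDM1A, 1 was higher and 9 were lower in the triple mutant, with a median of -0.79. Of all genes tested, 81.6% were called there and 78.9% after SETDB1 loss, with medians of 0.04 and 0.01. Hmg20b (-1.52), the corepressor Rcor2 (-1.43), Zmym3 (-1.17) and Zmym2 (-1.03) had the largest changes there. After SETDB1 loss 3 were higher and 7 lower with a median of -0.14, and Hmg20b fell by 1.11. The 7 H3K9 methyltransferases, a separate list of genes that place methyl groups on H3K9, were split. In the triple mutant 4 were lower, Ehmt1 (-1.62) and Ehmt2 (-0.93) most, and 3 higher, among them Suv39h2 (0.89). After SETDB1 loss 3 were lower, Suv39h2 (-1.68), Ehmt2 (-1.54) and the deleted Setdb1 (-0.93), and 4 higher, among them Setdb2 (1.13).

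Enzymes that make or use the cofactors 2-oxoglutarate and flavin formed a list of 15. In the triple mutant 4 were higher and 10 lower with a median of -0.40, and in Setdb1Δ/Δ cells 2 were higher and 12 lower with a median of -0.24, where 81.6% and 78.9% of all genes were called and the medians were 0.04 and 0.01. Idh2, which makes 2-oxoglutarate in mitochondria, had log2 changes of -1.68 and -2.65, and Idh3a of the citric acid cycle had -1.13 and -1.12. Genes of the hypoxia response went down beside them, with 1 higher and 14 lower of 16 in the triple mutant (median -1.78) and 0 higher and 14 lower of 15 tested in Setdb1Δ/Δ cells (median -1.40). Bnip3 changed by -3.33 in the triple mutant and Vegfa by -2.66 there and -3.05 after SETDB1 loss. Kdm3a was higher in both of these mutants and Kdm4b lower in both. In the single mutants, where Kdm3a rose, 3 hypoxia genes were higher and 11 to 13 lower. Of all genes, 45% (Hp1αΔ/Δ), 51.1% (Hp1βΔ/Δ) and 46.7% (Hp1γΔ/Δ) were called there. In Hp1α/γΔ/Δ ESCs, where Kdm3a rose as well, 3 were higher and 5 lower (46.5% of all genes called). In Hp1α/βΔ/Δ ESCs, where Kdm3a also rose, 10 were higher and 3 lower (median 0.20, 43.4% called). In Hp1β/γΔ/Δ ESCs, where Kdm3a fell, 1 was higher and 13 were lower (median -0.50, 51.7% called). Between the wild-type sets 13 of 16 were higher in set B (median 0.61, 24.8% called), where Kdm3a was lower. Kdm4b, the other member known to be induced by hypoxia, went the way of the median hypoxia gene in each of these comparisons. Its log2 changes were -0.22, -0.15 and -0.22 in Hp1αΔ/Δ, Hp1βΔ/Δ and Hp1γΔ/Δ, and -0.02 in Hp1α/γΔ/Δ ESCs. They were 0.37 in Hp1α/βΔ/Δ, -0.61 in Hp1β/γΔ/Δ and 0.22 between the wild-type sets. The changes in Hp1βΔ/Δ and Hp1α/γΔ/Δ did not pass the test. These comparisons share control libraries, and a link between the hypoxia genes and Kdm3a or Kdm4b was not tested.

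Genes near which KDM3A, KDM4C or their relatives are known to act in ESCs were followed as a list of 8. Of these 7 were analysed here, as Tcfcp2l1 was not found by that symbol. Nanog, Pou5f1 and Esrrb are also among the ES cell markers, so those lists are not separate. In the triple mutant 1 was higher and 5 were lower, with Klf2 (-2.31), the imprint keeper Zfp57 (-1.91), Nanog (-1.50) and Pou5f1 (-1.09) changed most, against 81.6% of all genes called. Loss of SETDB1 left all 7 lower, led by Tcl1 (-1.70) and Zfp57 (-1.25), against 78.9% called. The single and double mutants were mixed. In Hp1β/γΔ/Δ ESCs 1 was higher and 6 were lower with a median of -0.46 (background 51.7%). In Hp1βΔ/Δ ESCs, where Kdm4c was also low, 5 were higher and 0 lower (51.1%), with Tcl1 at 0.75 and Nanog at 0.43. In Hp1α/γΔ/Δ ESCs 6 were higher and 0 lower (46.5%), and in Hp1αΔ/Δ, Hp1γΔ/Δ and Hp1α/βΔ/Δ ESCs 4 were higher and 3 lower in each (45%, 46.7% and 43.4%). Of the marker lists, the ES cell markers had 1 higher and 8 lower of 10 in the triple mutant and 2 higher and 8 lower in Setdb1Δ/Δ cells. The feeder markers had 2 higher and 4 lower of 7 tested in the triple mutant, and 1 and 2 of 3 in Setdb1Δ/Δ cells, and the endoderm markers had 3 and 3 of 6 and 1 and 7 of 8.

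The members did not vary as one group across the 33 libraries. Kdm3b and Kdm4a varied most alike, with a Pearson r of 0.80 between their log2 CPM, followed by Kdm1a and Kdm4a at 0.65. Kdm1a and Jmjd1c (-0.61) and Kdm3a and Kdm3b (-0.59) were opposed, and Kdm3b and Kdm4c (-0.03) had an r near 0. Replicates of a condition share their line, so these values describe 11 conditions more than 33 independent points. Among 10761 genes with a mean of at least 5 CPM, those most like Kdm4a were Eml4 (r = 0.97), Sin3a and Pacsin2, and those most like Kdm3b were Zbtb37 (0.95), Kif14 and Kmt2d. Kdm3a was most like Wdr92 (0.92), Eprn and Prdm4, Kdm1a like Hcn2 (0.92), Mgarp and Slc25a39, and Jmjd1c like Prrc2c (0.91), Trpm7 and Rictor. The closest to Kdm4c was Nectin3 (0.86), then Mocos and Zfp652, and to Kdm4b Ppp2r5c (0.84), then Sec14l1 and Trappc9.

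By position in GENCODE M21 (GRCm38), Kdm4c, Kdm4a and Kdm1a lie on chromosome 4 at 74242497 to 74405860, 118136957 to 118180043 and 136550540 to 136602723. Kdm3a lies on chromosome 6 at 71588972 to 71632990, Kdm4b on chromosome 17 at 56326062 to 56402870, Kdm3b on chromosome 18 at 34777047 to 34838660 and Jmjd1c on chromosome 10 at 67096125 to 67256326. Kdm3a and Kdm4b overlap with no other annotated gene. On the opposite strand lie the antisense A230083N12Rik across Kdm4c, Luzp1 across Kdm1a, Reep3 and the snRNA Gm26359 across Jmjd1c, the lincRNA Gm26538 across Kdm3b and the snoRNA Gm23382 across Kdm4a. The processed pseudogene Gm12987 overlaps with Kdm1a on the same strand, where counting by strand could not separate them. Whether counting used strand is not given in the sources used here.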

How the data were processed

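RNA-seq of 33 mouse ESC libraries was taken from 8 tables. In these the authors give, per gene, RSEM expected counts and TPM for each library, group means, and the log2 ratios and p-values of their own comparisons, which were not used. Per the labels, TopHat2 2.1.1, RSEM, edgeR and GRCm38.p5 were used, and the study's methods name DESeq2. The labels name a TruSeq RNA kit and the methods a stranded total RNA kit. Between 11.2% and 15.5% of count values per library were not whole, so the counts were rounded. A wild-type library had the same values in each table that held it (0 differ).

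The deposited expected counts were tested with edgeR 4.0.16 in R 4.3.3: filterByExpr (minimum count 10), TMM, quasi-likelihood F test, and Benjamini-Hochberg adjustment over all genes tested. Each comparison used its own 6 libraries, and the difference between HP1 and SETDB1 loss used 12. A gene was called at an adjusted p under 0.05, and apart from that at an absolute log2 fold change over 1, the study's thresholds. CPM are TMM-scaled over all 33 libraries. The authors' TPM serve for levels between genes. Approximate 95% intervals use a normal multiple of the SE. An exact permutation test of 3 against 3 libraries cannot go below 0.1 and was not used.

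The members and lists were chosen with earlier results of these data known. All 7 members passed the filter in every comparison and are named throughout. Of each list the text names up to 4 called genes with the largest change, and for each member the 3 genes with the highest Pearson r. Of the 55487 genes, 55141 matched GENCODE M21 by ID. RefSeq promoters were matched by symbol for Kdm1a, Kdm3a, Kdm4a, Kdm4c and Jmjd1c. The fits were first tested on simulated data.

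Alternatives were RLE size factors, DESeq2 1.42.0, no filter, at least 10 counts in every library, the replicate number as a block, each library left out, the other wild-type set, a joint fit and counts per listed gene length. The TPM scale was added after the data were seen.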

Additional observations from a re-analysis of the deposited data

Results flagged for a closer look

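The changes of 3 members differed between the HP1 triple mutant and the SETDB1 mutant by a test of the difference itself. Of all 18569 genes tested, 64.9% did so. Kdm4a differed by -1.05, Kdm3b by -0.79 and Kdm3a by 0.29 on the log2 scale (triple mutant change minus Setdb1Δ/Δ change, edgeR's quasi-likelihood test on 12 libraries). The genes of chromosome 6, where Kdm3a lies, had a median difference of 0.27. With set B as the control of the triple mutant, 5 of 7 members differed, where 6020 of 18610 genes had a positive and 6391 a negative difference that passed.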

How the results depend on the processing

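RLE size factors, DESeq2, either filter and the replicate block moved no member's log2 fold change by more than 0.13, and no count of changed members by over 1.5 times. The joint fit of all libraries moved the count to 3 in Hp1βΔ/Δ, Hp1γΔ/Δ, Hp1α/βΔ/Δ and Hp1β/γΔ/Δ. It moved the count to 4 in Hp1α/γΔ/Δ and to 1 between the wild-type sets. Of all 19736 genes in that fit, 3666 were higher and 3859 lower in Hp1βΔ/Δ. The numbers were 2255 and 2828 in Hp1γΔ/Δ, 2483 and 2822 in Hp1α/βΔ/Δ, and 3211 and 3295 in Hp1β/γΔ/Δ. In Hp1α/γΔ/Δ they were 5602 and 5685, and between the wild-type sets 1333 and 1379. The cause of these moves was not tested. With set B as the control of the triple mutant, 5 members differed between HP1 and SETDB1 loss and 0 did so by more than 2-fold. Of all 18610 genes, 6020 had a positive and 6391 a negative difference that passed. By more than 2-fold these were 3099 and 3339. Jmjd1c in Hp1αΔ/Δ turned to 0.010 against set B. With 1 library left out in turn, 3 to 7 members changed in Hp1βΔ/Δ, 1 to 3 in Hp1α/γΔ/Δ and 1 to 3 between the wild-type sets. The lowest counts in Hp1βΔ/Δ came without replicate 1 or 2 of set A or replicate 2 or 3 of Hp1βΔ/Δ (3 each). Between the wild-type sets they came without replicate 2 of set A or replicate 2 or 3 of set B (1 each). Without replicate 2 of set A, 3447 of 16166 genes were higher and 3497 lower in Hp1βΔ/Δ. Between the wild-type sets 1579 of 16331 were then higher and 1541 lower. Without replicate 1 of Hp1βΔ/Δ, 4221 of 16261 genes were higher in that line and 4306 lower. In the triple mutant against Hp1α/βΔ/Δ 1 to 2 members passed 2-fold, the second without replicate 1 of Hp1α/βΔ/Δ. For the difference between HP1 and SETDB1 loss 0 to 1 did, none without replicate 3 of the triple mutant. Jmjd1c in Hp1α/γΔ/Δ ran from -0.25 without replicate 1 to 0.31 without replicate 2. In TPM as deposited, the log2 ratio turned to 0.066 for Kdm1a and 0.054 for Kdm4c in the triple mutant, and to 0.25 for Kdm1a, 0.33 for Kdm3b, 0.011 for Kdm4a and 0.15 for Kdm4c in Setdb1Δ/Δ.

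The correlation of deviations of same-numbered libraries lay between -0.0855 and 0.131 and was not over 0.1 for every pair in any comparison. Libraries thus shared only a number, and the replicate block (7 members changed in the triple mutant with it) bears on spread and not on pairing. It changed 2 calls, Kdm4b in Hp1βΔ/Δ (adjusted p = 0.0453) and Kdm1a in Hp1γΔ/Δ (adjusted p = 0.0510). Counts per listed length gave 144 for Kdm1a, 87.8 for Kdm4c, 61.0 for Kdm3a, 57.5 for Jmjd1c, 57.4 for Kdm4a, 56.6 for Kdm3b and 23.3 for Kdm4b in set A, so Kdm3a and Kdm4c changed places and the rest of the order of levels held.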
